A study of Mus musculus with 91 samples.

Results

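The genes described here are nuclear genes for subunits of the respiratory chain and of the ATP synthase, supplied as 47 Ensembl identifiers from the Nduf, Sdh, Uqcr, Cyc, Cox and Atp5 families. All 47 identifiers had a row in the deposited counts, among 14355 genes in all. No table at hand pairs these identifiers with gene names. The complex of a single gene could therefore not be given, genes are named by identifier, and no sequence is printed. The smallest count of any of the 47 genes in any library was 41, so none was near the detection limit.

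The mRNA came from the nucleus accumbens of male and female mice over 10 weeks old, kept in 12 h of light and 12 h of dark. Drd1-Cre mice (for D1 neurons) and A2a-Cre mice (for D2 neurons) were crossed to RiboTag mice, so that Cre-expressing cells carried HA-tagged Rpl22, and ribosome-bound mRNA was pulled down with an anti-HA antibody. Both cell types thus carried the RiboTag allele, and cell type and Cre line cannot be told apart. Tissue of 2 mice was pooled in each sample, and the labels do not say more about how replicates were made, so p-values measure the spread between these samples. There were 23 female and 22 male D1 libraries and 23 female and 23 male D2 libraries, taken at ZT 2, 6, 10, 14, 18 and 22 (hours after lights on), with 3 or 4 libraries in each of 24 groups. Titles carry a letter (A, B, C, D or E), whose meaning the labels do not give.

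The respiratory chain sits in the inner mitochondrial membrane. Complexes I and II (the Nduf and Sdh families) take electrons from NADH and succinate, complex III (Uqcr) passes them to cytochrome c (Cyc), and complex IV (Cox) hands them to oxygen. The proton gradient that results drives the ATP synthase (Atp5). Most of the subunits are encoded in the nucleus, translated in the cytosol and imported, and neurons depend on this machinery for the ATP that ion pumping and synaptic transmission use.

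Library totals ranged from 6872165 to 24665262 counts. D1 male libraries ZT10 B, ZT22 B and ZT18 D stood apart from the rest: their median correlation over genes with libraries of their own cell type was 0.880 to 0.926, against 0.943 to 0.987 for the others. Some results that include these 3 libraries are also given without them. The shares of counts, the correlations, the counts of peak times in D1 neurons and the check of pairing by letter are given only with them. The labelled cell types were not checked against markers, since no gene could be named.

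The 47 genes together made up 0.224% to 0.541% of a library's counts, a range of 2.42-fold. They rose and fell together, and the letter in the title was the label with the clearest difference. In D2 neurons the share of counts was 0.501% ± 0.0242 (SD, n = 12) in letter A and 0.449% ± 0.0428 (n = 10) in letter B, against 0.289% ± 0.0302 (n = 12) in letter C and 0.294% ± 0.0135 (n = 12) in letter D. The lowest letter A or B library, at 0.407%, lay above the highest letter C or D library, at 0.334%, so the groups did not overlap. In bulk libraries of this kind, fewer cells that express a gene and less RNA per cell cannot be told apart.

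**Figure D1:**
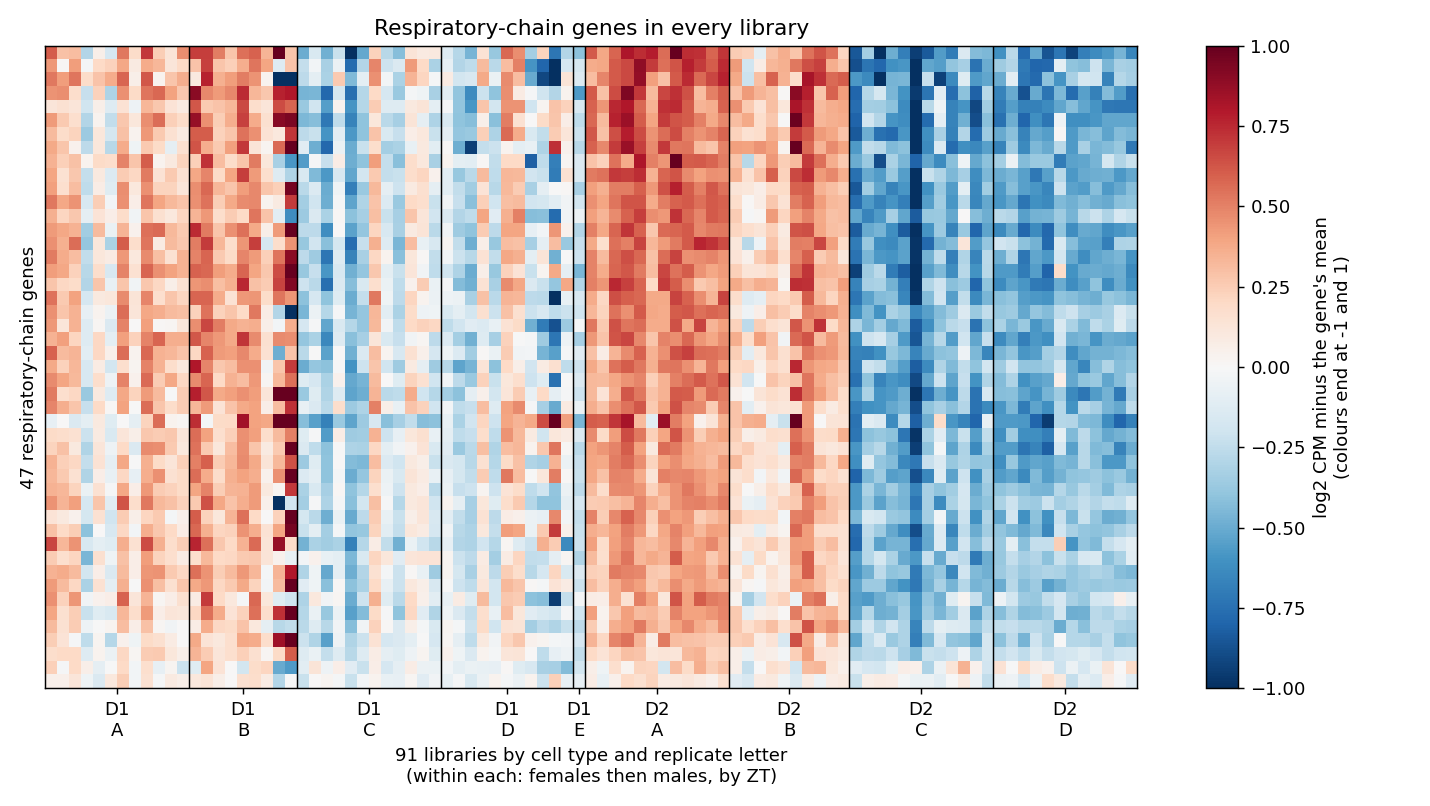
Each column is 1 of 91 libraries and each row 1 of the 47 respiratory-chain genes; colour gives log2 CPM (counts scaled by library size) minus the gene's mean over all libraries. The D2 libraries of letter A are red for nearly all genes and those of letters C and D blue. Those of letter B are mostly red, but many genes are blue in D2 female ZT10 B. The D1 libraries show the same order of letters A and C less strongly.

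Gene by gene, all 47 were higher in letter A than in letter C in D2 neurons, by 1.10-fold to 2.48-fold with a median of 1.92-fold. Over all genes tested 50.1% were higher in letter A, with a median ratio of 1.00. The ratio exceeded 1.5 for 44 of the 47 genes and for 18.8% of all genes. Every letter A library lay above every letter C library for 44 of the 47 genes, against 20% of all genes. A test of any difference among letters A to D in D2 neurons called 47 of 47 genes (edgeR, adjusted p under 0.05), but it also called 85.6% of all genes. The letter effect in D2 neurons was thus spread over most genes. Total counts moved with it: D2 libraries of letter A had 19727033 ± 3011572 counts (SD, n = 12) and those of letter C 11336342 ± 1749182 (n = 12). The part of depth in the letter difference was not tested.

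D1 neurons showed a smaller difference with another order of the letters. The share was 0.435% ± 0.0491 (SD, n = 12) in letter A, 0.476% ± 0.0466 (n = 9) in B, 0.360% ± 0.0504 (n = 12) in C and 0.384% ± 0.0499 (n = 11) in D, with 0.338% in the single letter E library. The letters overlapped: a letter C library reached 0.452%, above the lowest letter A library at 0.332%. All 47 genes were again higher in letter A than in letter C, by 1.06-fold to 1.49-fold (median 1.26-fold; 49.2% of all genes were higher in A). Every letter A library lay above every letter C library for 1 of the 47 genes, against 0.132% of all genes. The test of letters A to D called 43 of 47 genes (47 without the 3 libraries that stand apart) and 58.4% of all genes.

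**Figure D2:**
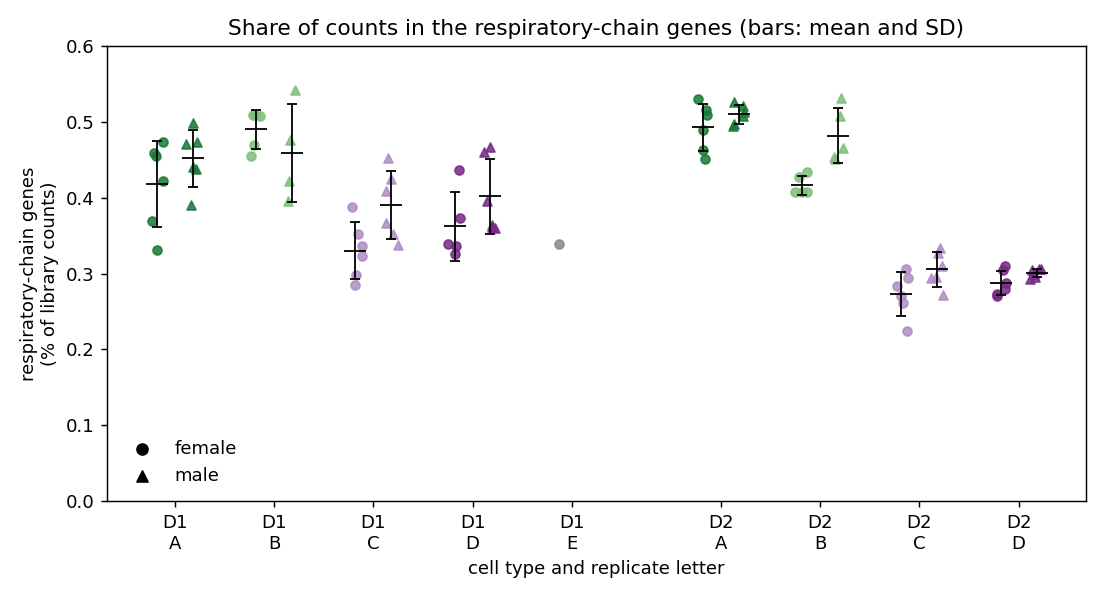
Share of each library's counts in the 47 respiratory-chain genes (%), by cell type, letter and sex; each point is a library and the bars give mean and SD. D2 letters A and B (lowest library 0.407%) lie above D2 letters C and D (highest library 0.334%), and D1 letters overlap.

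How closely the genes moved together was described with the correlation of their deviations from the group means, which share the libraries and their depth. In D2 neurons the median over 1081 pairs of the 47 genes was 0.95 (n = 46 libraries, range 0.29 to 1.00), and the median with genes outside the set was -0.01. Since 50.1% of all genes were higher in letter A than in letter C, signed correlations can have a median near 0 even where outside genes moved strongly. In D1 neurons the median over pairs of the 47 was 0.74 (n = 45, range -0.47 to 0.98). With letter means removed as well, the medians were 0.58 in D2 and 0.60 in D1 neurons. ENSMUSG00000005510 and ENSMUSG00000027673 were the least tied to the others in D2 neurons, with median correlations of 0.51 and 0.55 before letter means were removed. They also had the smallest differences between letters, with letter A over letter C ratios of 1.14 and 1.10.

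The first comparison was of D1 against D2 neurons. Over all libraries the share of counts in the 47 genes was 0.409% ± 0.0650 (SD, n = 45) in D1 and 0.381% ± 0.0997 (n = 46) in D2 neurons, a difference smaller than the spread in either. The fit called 0 of the 47 genes higher in D1 neurons, against 9.44% of all genes, and 1 lower, against 9.86% of all genes. The median difference of the 47 was 0.07 on the log2 scale (all genes: -0.01), and 39 of 47 were above 0. At an unadjusted p under 0.05, 6 of the 47 passed, while 9.44% (higher) and 9.86% (lower) of all genes passed even after adjustment. DESeq2 called 1 of the 47, and its share over all genes is not given here.

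The gene called lower in D1 neurons was ENSMUSG00000005510. Its CPM had a lowest, median and highest value of 19.8, 28.1 and 38.6 in D1 libraries and of 23.8, 30.5 and 37.7 in D2 libraries. The ranges overlapped for most of their length. The difference was -0.11 ± 0.035 (log2, SE; adjusted p = 0.0183), 1.08-fold higher in D2. Without the 3 libraries that stand apart it was -0.08 with an adjusted p of 0.117, and with the letter as a block as well it was -0.07 (adjusted p = 0.0423). With all libraries the call was also lost without letter B (-0.09, adjusted p = 0.0814) and without letter D (-0.08, adjusted p = 0.298).

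Between D1 and D2 libraries of the same letter most of the 47 genes differed, and the direction changed with the letter. The labels do not say whether a letter means the same in both cell types. A shift shared by the D1 or by the D2 libraries of a letter cannot be told apart here from a difference between cell types. The p-values within letters do not measure such a shift. Among letter A libraries 42 of the 47 were called lower in D1 neurons (24.4% of all genes were), the median difference was -0.26 (log2) and 0 of 47 were above 0. Among letter C libraries 43 were called higher in D1 neurons (28.1% of all genes) with a median of 0.36, and 46 of 47 were above 0. Among letter D libraries 41 were called higher (28% of all genes) and 1 lower (26.3% of all genes), with a median of 0.38. Of the 42 genes called in letter A and the 43 called in letter C, 41 were the same. Lists that long out of 47 must share most of their genes, so no conclusion is drawn from the overlap. Letter B gave 24 higher (20.8% of all genes) and 8 lower (27.5% of all genes), with a median of 0.15.

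2 of the libraries that stand apart carry letter B and 1 carries letter D. With plain means of log2 CPM in place of the fit, the median difference in letter B was 0.12 with them and 0.10 without them. In letter D these values were 0.34 and 0.38. Letters A and C hold none of the 3, and there the plain means gave -0.26 and 0.34. The opposite signs of letters A and C thus did not depend on the libraries that stand apart.

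With the letter as a block in the fit of all libraries, 24 of the 47 genes were called higher in D1 neurons (22.7% of all genes) and 1 lower (15.4% of all genes), with a median difference of 0.13. That mean is taken over letters of opposite sign. Same-letter D1 and D2 libraries did not consistently deviate together (73.5% of pairs had a correlation over 0.1, the lowest -0.72), so the letters were not taken to pair the cell types.

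The 2 genes of lowest p with the block were ENSMUSG00000021577 and ENSMUSG00000025428. ENSMUSG00000021577 had a CPM of 343 ± 50.6 (SD, n = 12) in D1 and 383 ± 19.2 (n = 12) in D2 libraries of letter A. In letter C it had 278 ± 37.4 (n = 12) in D1 and 217 ± 17.8 (n = 12) in D2 libraries. The fitted difference was -0.17 ± 0.061 (log2, SE; adjusted p = 0.0247) within letter A and 0.36 ± 0.061 (adjusted p = 0.000135) within letter C. D2 libraries changed by more between the letters than D1 libraries did, and the order of the cell types turned over. With the block the difference was 0.20 ± 0.042 (adjusted p = 6.87e-05), and without it 0.16 ± 0.071 (adjusted p = 0.11).

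ENSMUSG00000025428 followed the same course. Its CPM was 670 ± 112 (SD, n = 12) in D1 and 797 ± 61.1 (n = 12) in D2 libraries of letter A, against 488 ± 89.4 (n = 12) and 356 ± 55.9 (n = 12) in letter C. The difference was -0.26 ± 0.071 (log2, SE; adjusted p = 0.00555) within letter A, 0.47 ± 0.081 (adjusted p = 0.000161) within letter C and 0.27 ± 0.058 (adjusted p = 0.000114) with the block.

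**Figure D3:**
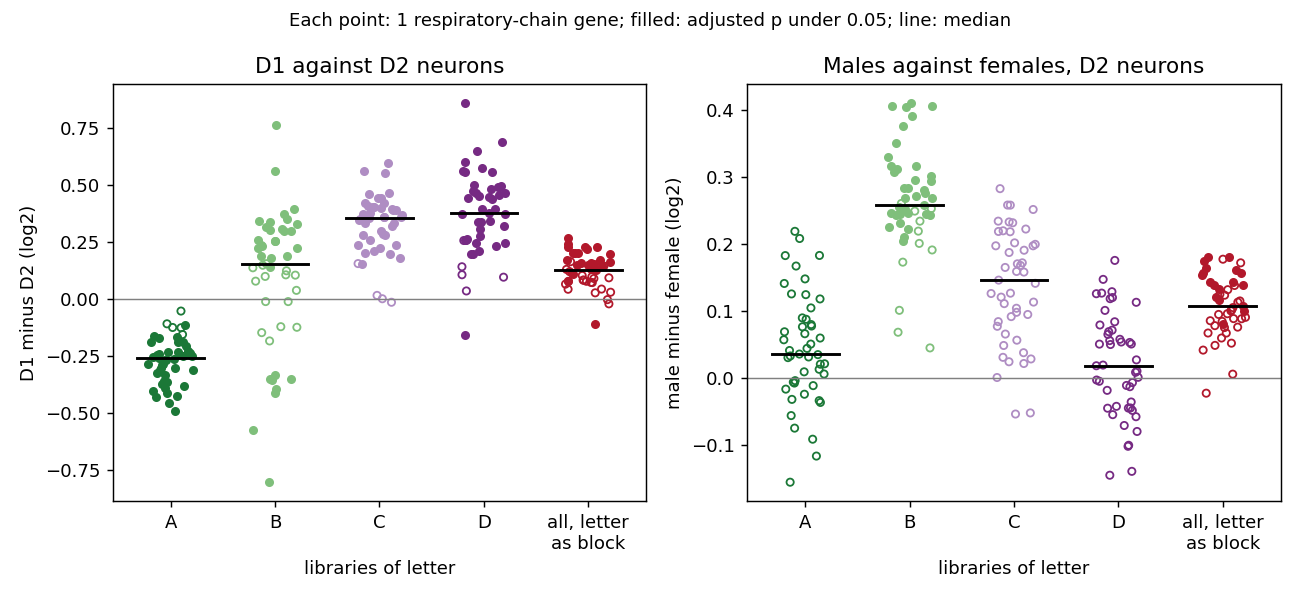
Differences of the 47 respiratory-chain genes (log2; 1 point per gene, filled where the adjusted p is under 0.05, line at the median). Left, D1 minus D2: the medians run from -0.26 in letter A to 0.38 in letter D. Right, male minus female in D2 neurons: all 47 genes lie above 0 in letter B, and the medians of letters A and D are 0.04 and 0.02.

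The next comparison was of the sexes. In D2 neurons the share of counts was 0.396% ± 0.102 (SD, n = 23) in males and 0.365% ± 0.0975 (n = 23) in females, with full overlap. Without the block 0 of the 47 genes were called (0.216% of all genes were), 0 passed at an unadjusted p under 0.05 and DESeq2 called 0. Same-letter D2 libraries deviated together in every pair (lowest correlation 0.19, median 0.72), so the letters were taken to pair D2 libraries. In the paired fit 18 of the 47 genes were called, all 18 higher in males, against 5.01% of all genes. The median difference was 0.11 (log2; all genes 0.00), and 46 of 47 were above 0.

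The differences were small. ENSMUSG00000025393, of lowest p, had a lowest, median and highest CPM of 202, 315 and 664 in D2 females and of 272, 355 and 656 in D2 males. Males exceeded females in the letter means, with 640 ± 17.5 against 609 ± 48.2 CPM (SD, n = 6 each) in letter A and 313 ± 8.71 against 286 ± 19.8 (n = 6 each) in letter D. The paired difference was 0.18 ± 0.035 (log2, SE; adjusted p = 0.000931), a ratio of 1.13. ENSMUSG00000022956, the next by p, differed by 0.16 ± 0.033 (adjusted p = 0.00209), with 66.5 ± 3.92 CPM in males and 61.2 ± 5.98 in females of letter A (n = 6 each) and 37.8 ± 2.38 and 34.8 ± 2.08 in letter D (n = 6 each).

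These calls depended on letter B. Fitted on letter B alone, 36 of the 47 genes were higher in males (8.7% of all genes), with a median of 0.26 and all 47 above 0. The median was 0.04 in letter A, 0.15 in letter C and 0.02 in letter D, with 0 genes called in each. In letter B, D2 males had no library at ZT6 and D2 females had none at ZT2. A mean, cosine and sine were thus fitted there to 5 libraries of each sex, at different sets of times. The part of these gaps in the letter B difference was not tested. Without letter B the paired fit called 0 of 47, with a median of 0.06 and 38 above 0, and the adjusted p of ENSMUSG00000025393 was 0.0567. Without letter C it called 6. Both fits have fewer libraries, and shares over all genes are not given for them or for the depth fit below. The D2 male letter B libraries were also the deeper ones, with 18005634 ± 4431931 counts (SD, n = 5) against 14477728 ± 2534921 (n = 5) in females. With depth as a covariate in the paired fit 13 genes were called and the median was 0.11. In the fit without the letter, the same covariate brought the median to 0.00.

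In D1 neurons the share was 0.423% ± 0.0541 (SD, n = 22) in males and 0.395% ± 0.0726 (n = 23) in females. 0 of the 47 genes were called (0.0418% of all genes), 10 passed at an unadjusted p under 0.05 (2223 of all 14355 genes) and DESeq2 called 0. The median difference was 0.13 (log2), with 39 of 47 above 0. With depth as a covariate the median was 0.24, with 46 of 47 above 0 and 0 called. Without letter B it was 0.20, with 46 above 0 and 4 called (294 of all 14355 genes). A fit with the letter as a block called 11 genes higher in males (5.39% of all genes), with a median of 0.16 and 41 of 47 above 0. Without the 3 libraries that stand apart, all from males, the blocked fit called 0, with a median still at 0.16, 46 of 47 above 0 and a smallest adjusted p of 0.0584 (edgeR). Within letters the medians of plain means were 0.13 in A, -0.05 in B, 0.27 in C and 0.15 in D, and -0.15 in B and 0.17 in D without those libraries. The fit within letter B, where 4 male libraries bear 3 fitted terms, called 14 genes higher (17% of all genes) and 9 lower (20.6% of all genes) in males.

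ENSMUSG00000025204 had the lowest p for sex in D1 neurons. Its lowest, median and highest CPM were 20.0, 29.4 and 57.5 in females and 23.8, 38.9 and 104 in males. The 3 highest male values, of 104, 104 and 88.8 CPM, were those of the libraries that stand apart. The difference was 0.51 ± 0.16 (log2, SE; adjusted p = 0.206) with them and 0.18 (adjusted p = 0.7) without them.

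Whether the sex difference itself differed between the cell types was tested over all libraries. The test called 0 of the 47 genes and 0% of all genes, with 0 of the 47 at an unadjusted p under 0.05 and 0 called by DESeq2. In D1 neurons 0 were called without the block. There the fitted difference was above 0 for 15 of the 18 genes called in the paired fit of D2 neurons. It was above 0 for 39 of all 47 and for 48.7% of all genes.

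The last comparisons were of time of day, the question named in the series' title. A 24 h cosine was fitted to each sex, and a rhythm was tested on the terms averaged over the sexes. In D1 neurons the share of counts in the 47 genes was highest at ZT2, at 0.445% ± 0.0589 (SD, n = 8), and lowest at ZT18, at 0.376% ± 0.0582 (n = 6). In D2 neurons it ran from 0.372% ± 0.0986 (n = 8) at ZT22 to 0.392% ± 0.115 (n = 8) at ZT10. The ranges of the times overlapped in both cell types.

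In D1 neurons 0 of the 47 genes were called rhythmic (0.495% of all genes), with 2 at an unadjusted p under 0.05 (1803 of all 14355 genes) and 0 called by DESeq2. The fitted amplitudes (the height of the peak over the mean, log2) had a median of 0.10, against 0.09 over all genes. The fitted peaks lay in the light phase for 42 of the 47 genes, against 49.5% of all genes. Since the genes moved together from library to library, these peak times are not independent of each other, and no gene passed the test. ENSMUSG00000018770 had the lowest p (adjusted p = 0.22); its amplitude was 0.19 ± 0.057 (log2, SE) and it peaked at ZT 5. Its CPM was 68.9 ± 14.5 (SD, n = 8) at ZT2 and 49.5 ± 12.4 (n = 6) at ZT18.

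In D2 neurons 0 of the 47 genes were called without the letters (2.94% of all genes; 2 at an unadjusted p under 0.05; 0 by DESeq2). In the paired fit 9 were called (19.1% of the 47), against 22.3% of all genes, a share near the background. Of these 9 genes 5 peaked in the light, between ZT 5.7 and 7.7 (11.3% of all genes were called with a peak in the light), and 4 in the dark, between ZT 12.2 and 16.6 (11% of all genes). Their amplitudes ran from 0.07 to 0.23 with a median of 0.10. Over all 47 genes, called or not, the fitted peak lay in the light for 30 in the paired fit and for 20 without the letters. With limma voom without the letters it lay in the light for 0 of 47, and the 6 genes called there peaked in the dark. Without letter B the paired fit called 3 and without letter C it called 2. Fits without a letter have fewer libraries. For them, for the voom calls and for the D2 peak counts over all 47, shares over all genes are not given here. The lower counts are thus not read as a trait of these genes.

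ENSMUSG00000025204 had the largest amplitude among them, 0.23 ± 0.048 (log2, SE; adjusted p = 0.00135), with a peak at ZT 5.7. Its lowest, median and highest CPM in D2 neurons were 21.5, 36.3 and 48.1 at ZT6 (n = 7) and 16.5, 28.1 and 40.0 at ZT18 (n = 8). The times overlapped, and D2 letter A libraries averaged 44.2 and D2 letter D libraries 21.5 CPM. The call held in all 8 alternatives tried for the paired fit, with adjusted p of 0.000259 to 0.0147. Without the letters the adjusted p was 0.639. ENSMUSG00000022450 peaked at ZT 7.7 with an amplitude of 0.13 ± 0.030 (adjusted p = 0.0043), which was lost without letter C (adjusted p = 0.11).

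The 2 genes least tied to the others before letter means were removed were among the called genes that peaked in the dark. With letter means removed, ENSMUSG00000000088 (median correlation 0.27) was less tied than ENSMUSG00000027673 (0.31). In the paired edgeR fit ENSMUSG00000000088 was not called rhythmic (adjusted p = 0.534). ENSMUSG00000005510 had an amplitude of 0.10 ± 0.028 (log2, SE; adjusted p = 0.0207) and a peak at ZT 15.4. Its lowest, median and highest CPM in D2 neurons were 23.8, 27.1 and 32.6 at ZT2 (n = 7) and 28.1, 31.6 and 37.7 at ZT14 (n = 8). Values at ZT14 were the higher ones, with some overlap. ENSMUSG00000027673 peaked at ZT 16.3 with an amplitude of 0.07 ± 0.021 (adjusted p = 0.0247). Both calls were lost when some single letters were left out, the first without A, B or C and the second without A, B or D (adjusted p of 0.0618 to 0.251 over these). The amplitudes there were 0.10, 0.10 and 0.08 for the first and 0.08, 0.07 and 0.06 for the second.

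**Figure D4:**
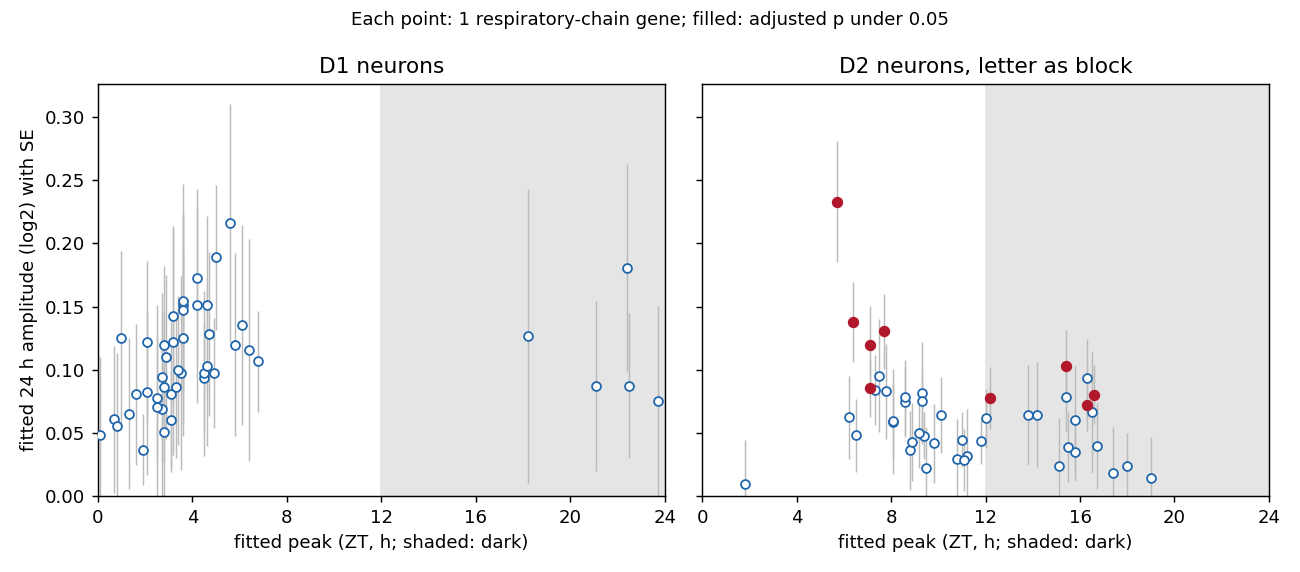
Fitted 24 h amplitude (log2, with SE) against fitted peak time (ZT, h; dark phase shaded) for each of the 47 respiratory-chain genes. In D1 neurons, fitted without the letter, 42 of the 47 open points peak in the light and 0 are filled. With the letter as a block, 34 peak in the light in D1 neurons (not drawn). In D2 neurons, with the letter as a block, the 9 filled (called) genes fall in a light-phase group of 5 and a dark-phase group of 4.

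By sex, 0 of the 47 genes were called in D1 females (0.0279% of all genes) and 0 in D1 males (0.0418%). In D2 neurons 0 were called in females (0.495%) and 0 in males (0.237%) without the letters. In the paired fit 1 was called in females (12.5% of all genes), ENSMUSG00000022450, and 6 in males (9.11% of all genes). The rhythm was not shown to differ between the sexes in the edgeR fits. They called 0 of the 47 genes in D1 neurons (0% of all genes), 0 in D2 neurons (0%) and 0 in the paired fit of D2 neurons (0.0209%). At an unadjusted p under 0.05 these tests passed 0 (226 of all 14355 genes), 1 and 9 of the 47, and DESeq2 called 0 in each. The counts over all genes beside the 1 and the 9 are not given here, so nothing is read from them. Limma voom called 27 in D1 neurons (2885 of all genes) and 0 in both fits of D2 neurons. It also called 20 rhythmic in D1 females (2524 of all genes).

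When the rhythms of the cell types were set against each other, 0 of the 47 genes were called (0.0139% of all genes), with 3 at an unadjusted p under 0.05 and 0 called by DESeq2. ENSMUSG00000005510 had the lowest p (adjusted p = 0.229). Its fitted peak was at ZT 6.8 in D1 neurons, with an amplitude of 0.11 ± 0.040 (log2, SE), and at ZT 15.4 in D2 neurons. D1 libraries had 30.6 ± 2.96 CPM (SD, n = 8) at ZT2 and 25.1 ± 3.13 (n = 8) at ZT22, and D2 libraries 27.7 ± 3.04 (n = 7) and 31.0 ± 3.84 (n = 8). D1 libraries thus had the higher mean at ZT2 and the lower mean at ZT22, which are 2 of the 6 times, and single libraries overlapped at both. The D1 mean at ZT22 includes D1 male ZT22 B, which stands apart. That library lay at -0.57 (log2) from the gene's mean over all libraries.

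With a block for the letters within each cell type, 5 of the 47 genes were called (3.24% of all genes), ENSMUSG00000005510 among them (adjusted p = 0.0295). Leaving out the 3 libraries that stand apart left 3 calls, and ENSMUSG00000005510 kept its call (adjusted p = 0.0397). The other 2 of these were ENSMUSG00000025204 (adjusted p = 0.0137), whose paired fit in D2 neurons peaked in the light, and ENSMUSG00000018770 (adjusted p = 0.0436). The check that did not find the letters to pair D1 libraries included the 3 libraries that stand apart. The test of letters A to D still called 58.4% of all genes in D1 neurons. Without the letters, limma voom with quality weights called 17 of the 47 genes (ENSMUSG00000005510 at an adjusted p of 0.0126). The share of all genes is not given for this fit or for the 3 calls above. These counts are thus not read as a trait of the 47 genes.

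**Figure D5:**
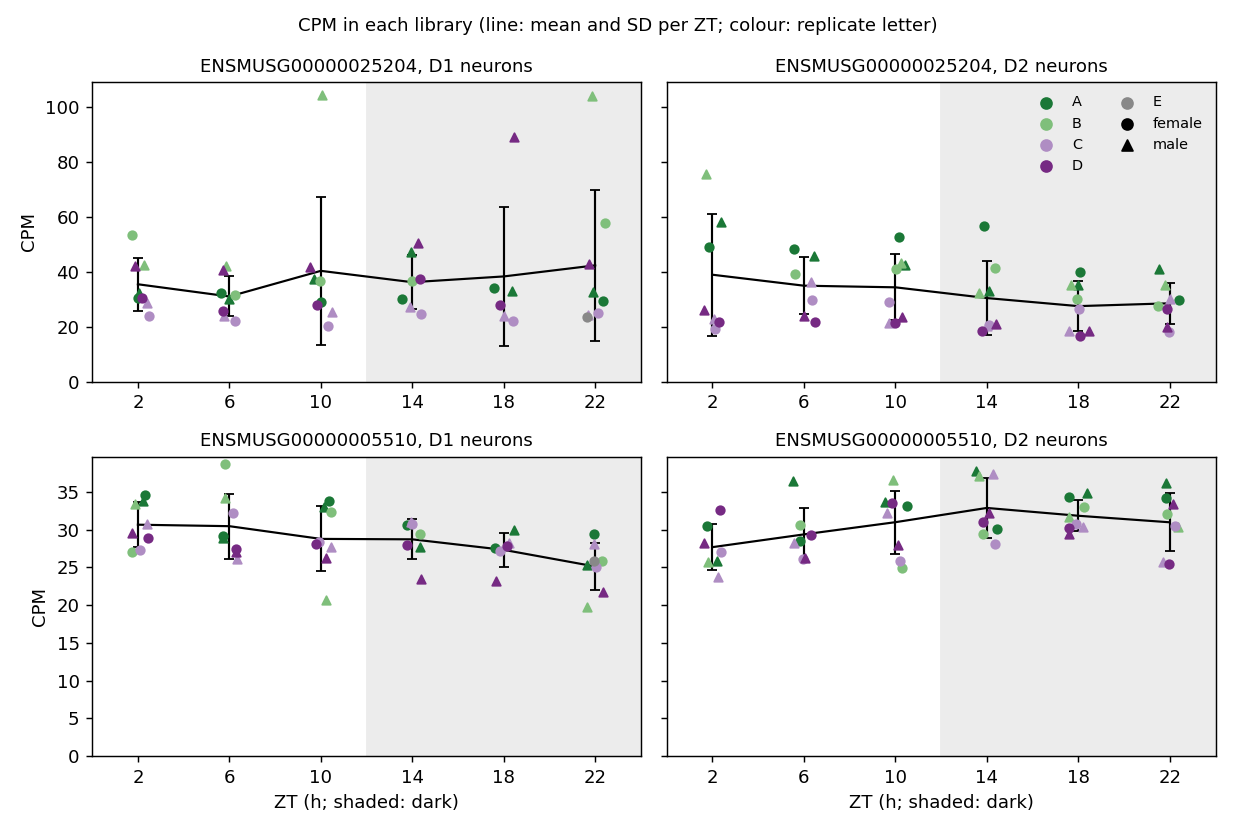
CPM of ENSMUSG00000025204 (top) and ENSMUSG00000005510 (bottom) in each D1 (left) and D2 (right) library by ZT, with the mean and SD per ZT; colour gives the letter and shape the sex. The 3 D1 male libraries that stand apart are the top points of ENSMUSG00000025204, at 104, 104 and 88.8 CPM, and ENSMUSG00000005510 runs from 30.6 down to 25.1 CPM in D1 and from 27.7 at ZT2 to 32.9 CPM at ZT14 in D2 neurons.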

How the data were processed

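Per the labels, 91 libraries of ribosome-bound mRNA were sequenced. The authors deposited raw counts per gene. Per the submitters' processing notes the tools were FastQC 0.11.7, HTSeq 0.10.0 and HISAT2, for which no version is listed, and builds GRCm38 and GRCh38 are named without a role. Genes were filtered on log CPM, per the name of the deposited file, with a threshold not given in the sources used here. All 91 sample columns were used (0 left out).

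The fits used edgeR 4.0.16 in R 4.3.3 (TMM, quasi-likelihood F-test, Benjamini-Hochberg over all 14355 genes, threshold 0.05). Each cell type and sex had a mean, cosine and sine with a period of 24 h. D1, D2 and all libraries were fitted separately. Alternatives used DESeq2 1.42.0 and limma 3.58.1 (voom with quality weights). CPM used TMM-adjusted totals; levels for plain means and correlations were log2 CPM with a prior count of 2. The scripts were tested on simulated data. No pair of libraries within a group agreed within counting noise (the lowest mean chi-square per gene was 4.24 over 129 pairs).

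Pairing by letter was checked from deviations from group means: 100% of 243 same-letter D2 pairs had a correlation over 0.1, against 66.8% of 223 D1 pairs (lowest -0.61). Calls in D1 neurons without the letter are thus not like for like with paired calls in D2 neurons.

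The reference table pairs 0 of the 14355 identifiers with a name. The 4 pathway lists and 9 marker lists could therefore not be scored. The rule for named genes took the called genes of lowest p in each direction; at most 2 per direction are given, and its parts that need a complex, with the 5 identifiers fixed for levels at every ZT, could not be carried out as written. The genes and lists were chosen with earlier results of these data known.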

Additional observations from a re-analysis of the deposited data

Results flagged for a closer look

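For the share of counts in the 47 genes in groups of 4 libraries, and for the CPM of ENSMUSG00000025204 and ENSMUSG00000005510 at each ZT, the gap between the outermost library and its neighbour was compared with Dixon's 95% critical value in 43 groups, of which 3 exceeded it; chance alone exceeds it in about 1 group in 20. All 3 were high values of ENSMUSG00000025204 in D1 male libraries: 104.3 CPM in ZT10 B (median of the 8 D1 libraries at ZT10: 32.7), 103.9 CPM in ZT22 B (median of 8: 31.0) and 88.84 CPM in ZT18 D (median of 6: 30.3). These are the 3 libraries that stand apart over all genes. Without them its fitted amplitude in D1 neurons was 0.02 in place of 0.13.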

How the results depend on the processing

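Counts of called genes are of 47. A count with no count over all genes beside it is not read as a trait of these genes. Over the 18 counts and 212 alternatives tried, 168 stayed within 1.5 times the main count and 44 did not. Chosen after seeing the data were the alternatives to the paired fits of D2 neurons, the block within cell types, the fits within letters and those without the 3 libraries that stand apart.

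For D1 against D2 levels the count was 1; it was 39 with voom, 25 with the replicate block, 12 with depth as a covariate, 0 to 31 with 1 letter left out, 0 without the 3 libraries that stand apart (27 with the block) and 42, 32, 43 and 42 within letters A, B, C and D. Within letter A ENSMUSG00000021577 (-0.17) and ENSMUSG00000025428 (-0.26) turned sign, and within letter C ENSMUSG00000005510 did, at 0.00099. The difference in rhythm between cell types gave 17 with voom, 1 with depth, 5 with the block within cell types and 3 with that block without the libraries that stand apart, in place of 0.

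In D1 neurons 66.8% of same-letter pairs had a correlation over 0.1. There the sex difference gave 11 with the replicate block (1042 of all 14355 genes) and 23 within letter B (5396 of all genes), in place of 0. With 1 letter left out it gave 0 to 4. Depth gave 1 rhythmic gene in D1 neurons (314 of all 14355 genes) in place of 0. In place of 0, voom gave 20 in D1 females (2524 of all genes). It gave 27 genes whose rhythm differed between the sexes (2885 of all genes), also in place of 0.

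For D2 neurons without the letters, in place of 0, voom gave 6 rhythmic genes and the replicate block 9; in females the block gave 1; in males DESeq2 gave 1, voom 18, the block 6 and depth 1. For sex the block gave 18 and letter B alone 36. In the paired fits, with 1 letter left out, the counts were 2 to 10 for rhythm (main 9), 0 to 5 in females (main 1), 1 to 6 in males (main 6), 0 to 2 for its sex difference (main 0) and 0 to 21 for sex (main 18). Voom gave 15 paired rhythmic genes, and in females depth gave 2, DESeq2 3 and voom 10. The causes of these changes were not tested.

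Over 12 values of single genes and 140 alternatives, 102 kept direction and call, 14 lost the call, 21 gained it and 3 reversed. RLE size factors and the filter on low counts changed no count by over 1.5 times.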
